A study of Mus musculus with 2 samples.

Results

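Keratins are the proteins of the intermediate filaments of epithelial cells, and the family was read here as every gene probe whose name in the scanner files begins with Krt and a digit, which takes epidermal, simple epithelial and hair keratins of type I and type II and leaves out the hair keratin associated proteins. The rule found 49 of the 41174 gene probes, which stand for 42 genes. RNA of mouse keratinocytes was compared on 2 two-colour Agilent arrays, with cells called CHUK-LoxP mutant keratinocytes labelled with Cy5 and wild-type keratinocytes labelled with Cy3 on both. Chuk encodes IKKα, a kinase needed for the epidermis to mature, and the comparison asks which transcripts differ between keratinocytes labelled mutant for it and wild-type keratinocytes. The labels give a loxP allele, sites at which Cre recombinase cuts, but no Cre driver, strain, age, passage or culture medium, and no treatment of either group. The dyes were not swapped, so what a probe owes to the dye and to the genotype cannot be told apart. Nothing says that the arrays carry separate cultures or animals, so p-values measure only the spread between 2 arrays, which may be technical.

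A keratin filament is built from a type I and a type II keratin in equal parts, and cells choose their pair by place and stage. Basal keratinocytes make keratins 5 and 14, cells that leave the basal layer replace them with keratins 1 and 10, and wounded or fast-dividing epidermis adds keratins 6, 16 and 17. Keratins 8 and 18 and their relatives 7, 19 and 20 belong to simple epithelia, and the remaining members to mucosa, hair follicle sheaths, hair and nail. In the mouse the type I genes lie side by side on chromosome 11 and the type II genes on chromosome 15, where the type I gene Krt18 ends the row.

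Probe flags set how far the family could be followed. Of the 49 probes, 22 were well above background in both channels of both arrays and 21 in no channel of either. A probe was tested if on each array 1 channel or both stood well above background, which left 24 probes of 21 genes. Of these 21 genes, 19 were well above background throughout, Krt1 in the wild-type channel only, and Krt28 in every channel but the wild-type channel of array 2. The 21 genes not tested were the epidermal Krt2 and Krt9, the mucosal Krt4 and Krt76, the inner root sheath genes Krt25, Krt26, Krt27 and Krt71, the hair genes Krt31, Krt32, Krt33a, Krt33b, Krt34, Krt35, Krt36, Krt82, Krt84, Krt87 and a further type II hair keratin, and Krt42 and Krt222. Krt34, Krt71 and a probe of Krt2 were well above background in the mutant channel of array 1 alone, and Krt84 in both channels of array 1. None of the 11 hair and nail keratins was tested. Counts below are over the 21 tested genes, not over all members.

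Keratinocyte markers were detected on the arrays, but so were those of other cells, and the mutant label could not be checked by its target. All 9 keratinocyte markers on the list used (Krt5, Krt14, Trp63, Itga6, Itgb4, Col17a1, Cdh1, Dsp and Perp) were tested. So were all 9 fibroblast and all 8 melanocyte markers, so passing the filter does not set keratinocytes apart. Both probes of Chuk were higher in the channel labelled mutant, against that label. Their mean log2 ratios were 0.74 and 0.85 (adjusted p = 0.000104 and 0.000105, limma with Benjamini-Hochberg adjustment). Neither the labels nor the files say whether a part of Chuk was deleted or whether these probes lie in it. Every direction here rests on the channel labels alone, and "mutant channel" means the channel so labelled. Between 53.2% and 64.5% of gene spots were well above background per channel and array, and the number of arrays limits the precision. Values are log2 ratios of mutant over wild type after loess, means carry the SD of the arrays (n = 2), and levels are log2 intensities normalised between arrays. Rose and fell mean past an adjusted p of 0.05.

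In the mutant channel 17 of the 21 tested keratin genes fell, 2 rose and 2 were not called, and their median log2 ratio was -0.93 (-0.85 for array 1, -1.02 for array 2), where all 13758 genes tested had 0.021. Among all genes 28.3% fell and 33% rose by the same test. A call in either direction was made for 19 keratins and for 61.2% of all genes. By probe, 20 keratin probes fell and 2 rose, against 27.9% and 33.4% of all probes tested. The 7 genes Krt7, Krt16, Krt23, Krt75, Krt78, Krt79 and Krt80 were at least 2-fold lower on both arrays, 33.3% of the tested keratins, where 3.21% of all genes were. No keratin was at least 2-fold higher on both arrays, against 1.5% of all genes. The 2 that rose were the basal pair, Krt14 and Krt5, which lay below 0 when the ratios were lowered by the mean of the spike-in spots. With each array centred on the median of all gene spots instead of by loess, which set the median of all tested probes at 0.47, 5 keratins were higher and 12 lower, and Krt6a, Krt8, Krt10, Krt15 and Krt20 had positive ratios. Lowered by the spike-in mean, which set that median at -0.74, 0 were higher and 21 lower. Of all 23540 probes tested, 16403 were higher and 1593 lower by that median centring. With the spike-in mean taken off 462 were higher and 21210 lower, so a fall in that setting is not particular to keratins.

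**Figure D1:**
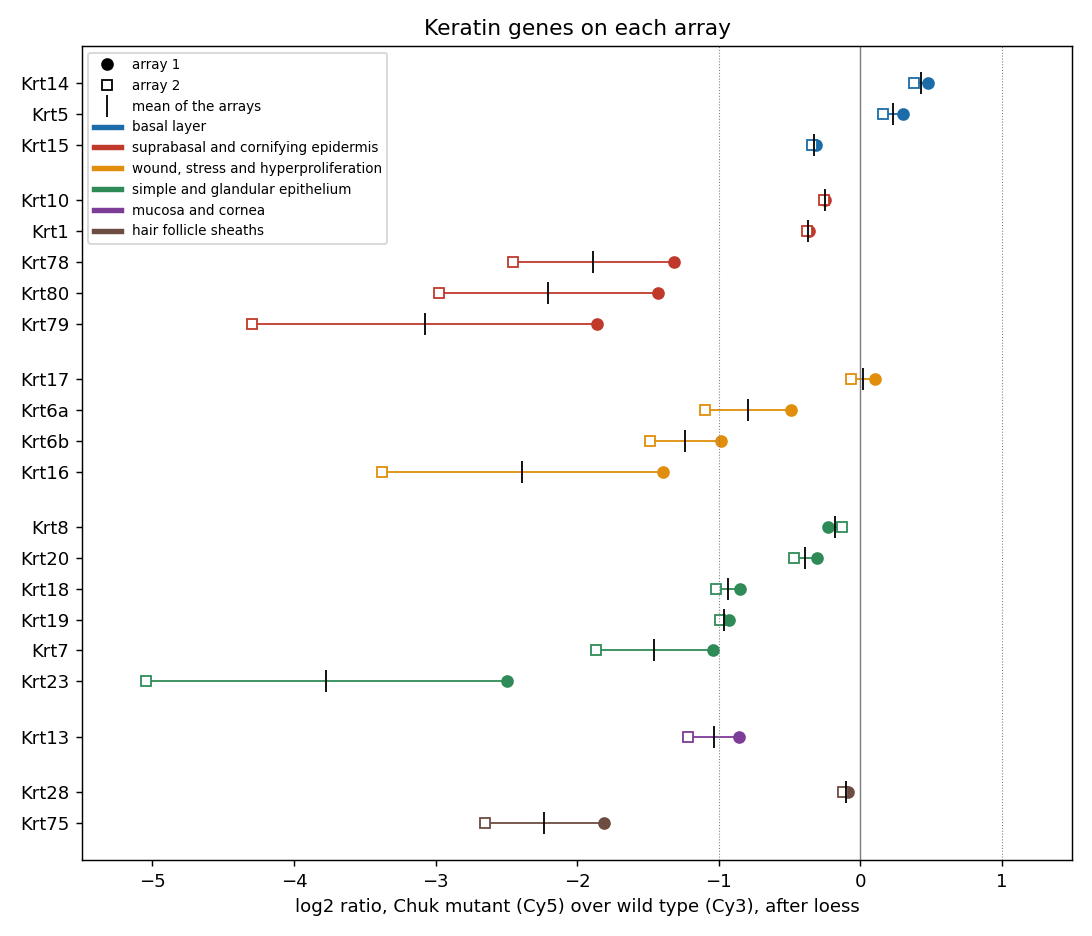
Log2 ratio of mutant over wild type for each of the 21 tested keratin genes, grouped by tissue, with Krt79 of the hair canal placed among the suprabasal and cornifying keratins. Circles are array 1, squares array 2 and ticks their mean; dotted lines mark 2-fold. After loess Krt14 and Krt5 lie right of 0, though with the spike-in mean taken off they do not, and Krt23, Krt79 and Krt16 farthest left, with their arrays far apart.

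Krt14 and Krt5 encode the basal pair, and both rose by little. Krt14 had log2 levels of 18.05 and 18.19 in the mutant channel of arrays 1 and 2, against 17.57 and 17.81 in the wild-type channel. Its log2 ratios were 0.48 and 0.38 (mean 0.43 ± 0.071, 1.35-fold, adjusted p = 0.000909, limma). Krt5 had 17.98 and 17.84 in the mutant channel, against 17.68 in the wild-type channel of each array, and its log2 ratios came to 0.30 and 0.16 (mean 0.23 ± 0.096, 1.17-fold, adjusted p = 0.014). On each array the mutant channel lay above the wild-type channel for both genes. The mutant spot of Krt14 on array 1 was saturated, so that ratio is a lower bound. Krt15, a type I keratin of basal cells and of the hair follicle bulge, had levels of 8.31 and 8.42 in the mutant channel, against 8.62 and 8.76 in the wild-type channel. It fell on both arrays, though not when centred on the median of all gene spots, at -0.31 and -0.34 (mean -0.32 ± 0.020, adjusted p = 0.00219).

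The values of the basal pair depended on the zero of the scale. Apart from keratins, 76 tested probes were as bright as Krt5 to within 1 log2 unit below it or brighter, and their median log2 ratio was 0.22 after loess. When arrays were centred on the median of the tested probes without loess, Krt14 lay at 0.94 and Krt5 at 0.74, and the median of those 76 probes at 0.68. In the software's processed signals Krt14 rose by 0.29 (adjusted p = 0.0323) and Krt5, at 0.091, was not called (adjusted p = 0.289). After lowering by the spike-in mean Krt14 lay at -0.33 and Krt5 at -0.53, where the median of all tested probes was -0.74. That setting takes a constant off all ratios of an array, so it cannot change where a gene stands relative to the others.

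All 5 tested keratins of the suprabasal and cornifying list, which counts Krt79 of the hair canal, fell, at a median of -1.89. Their means ran from -0.25 for Krt10 to -3.08 for Krt79. Krt10 alone of them turned positive when arrays were centred on the median of all gene spots. Krt1 and Krt10 are the pair of the spinous layer. Krt10 stood at levels of 9.16 and 9.54 in the mutant channel, against 9.41 and 9.80 in the wild-type channel, and fell by 0.25 on each array (adjusted p = 0.00609). A second Krt10 probe gave -0.56 and -0.33. Krt1 had 6.41 and 6.55 in the mutant channel, against 6.77 and 6.92 in the wild-type channel. For Krt1 only a bound can be given, at least 1.29-fold lower (adjusted p = 0.00126), since on neither array did its mutant channel stand well above background. A second Krt1 probe was well above background in no channel and was not tested.

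Krt79, a type II keratin of the hair canal and sebaceous duct lining in mouse skin, had levels of 9.15 and 6.87 in the mutant channel, against 11.00 and 11.17 in the wild-type channel. Its log2 ratios were -1.86 and -4.30 (mean -3.08 ± 1.73, 8.43-fold lower, adjusted p = 0.00235), and it ranked 39 from the lowest mean of the 13758 genes. Krt78, its neighbour on chromosome 15 and a type II keratin of stratified epithelia, had 9.05 and 8.42 in the mutant channel, against 10.37 and 10.88 in the wild-type channel. Krt78 fell by 1.89 ± 0.80, 3.70-fold (adjusted p = 0.000832). Krt80, a type II keratin that joins desmosomes in differentiating cells, had 9.74 and 7.95 in the mutant channel, against 11.17 and 10.93 in the wild-type channel, and fell by 2.20 ± 1.09 (4.60-fold, adjusted p = 0.00146). For all 3 genes the mutant levels of both arrays lay below both wild-type levels, but how many of all genes did so was not counted.

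Among the keratins of wounded and fast-dividing epidermis, 3 of 4 fell and Krt17 was not called. Krt16 had levels of 15.62 and 13.85 in the mutant channel, against 17.01 and 17.22 in the wild-type channel, and its log2 ratios came to -1.39 and -3.38 (mean -2.39 ± 1.40, 5.23-fold lower, adjusted p = 0.00288). Krt6b had 13.21 and 13.29 in the mutant channel, against 14.19 and 14.78 in the wild-type channel (mean -1.24 ± 0.36, adjusted p = 0.000259), and lay just short of 2-fold on array 1, at -0.99. Krt6a fell less, with 15.51 and 15.59 in the mutant channel, against 15.99 and 16.69 in the wild-type channel (mean -0.79 ± 0.43, adjusted p = 0.00282). For these 3 genes too, the levels of the 2 channels did not overlap, again without a count over all genes.

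Krt17, induced in wounds and also present in hair follicles, had 18.05 and 17.89 in the mutant channel, against 17.95 and 17.96 in the wild-type channel. Its log2 ratios of 0.10 and -0.068 had opposite signs (mean 0.018 ± 0.12, adjusted p = 0.815), and its mutant spot on array 1 was saturated. Krt16 and Krt17 are neighbours on chromosome 11 and close in sequence, as are Krt6a and Krt6b on chromosome 15. The probe sequences were not used here, so how far these probes pick up the neighbour's transcript was not tested.

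All 6 tested keratins of simple and glandular epithelium fell, at a median of -0.95, but with arrays centred on the median of all gene spots Krt8 and Krt20 were positive and Krt18 was not called. Krt23, a type I keratin of glandular and stressed epithelia, showed the largest change of any tested keratin. Its levels were 11.40 and 8.91 in the mutant channel, against 13.90 and 13.96 in the wild-type channel. The log2 ratios of -2.50 and -5.05 gave a mean of -3.77 ± 1.80 (13.7-fold lower, adjusted p = 0.00121), which ranked 11 from the lowest of all genes tested. Krt7, the type II keratin of ducts and glands, had 13.96 and 13.28 in the mutant channel, against 15.00 and 15.14 in the wild-type channel (mean -1.45 ± 0.58, adjusted p = 0.000709). Its second probe fell by 1.85.

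Krt18, the type I partner of Krt8, had levels of 14.41 and 14.82 in the mutant channel, against 15.26 and 15.84 in the wild-type channel, and fell by 0.93 ± 0.12 (adjusted p = 8.77e-05). Centred on the median of all gene spots, Krt18 lay at -0.11 (adjusted p = 0.35). Krt8 fell by 0.18 ± 0.074 only (adjusted p = 0.0313), and its second probe by 0.27. The Krt8 levels of 13.89 and 14.21 in the mutant channel, against 14.12 and 14.33 in the wild-type channel, overlapped across arrays. In the processed signals Krt8 was not called, at -0.17 (adjusted p = 0.107). Krt19, a type I keratin without most of the tail domain, fell by 0.96 ± 0.048 (adjusted p = 5.46e-05), with levels of 7.38 and 7.66 in the mutant channel, against 8.30 and 8.66 in the wild-type channel. Krt20, a marker of Merkel cells and gut epithelium, had 10.18 and 9.83 in the mutant channel, against 10.48 and 10.30 in the wild-type channel, and fell by 0.39 ± 0.12 (adjusted p = 0.0021).

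Of the mucosal keratins only Krt13 could be tested, the type I keratin of the oesophagus and mouth. It had levels of 13.61 and 13.75 in the mutant channel, against 14.46 and 14.97 in the wild-type channel, and fell by 1.04 ± 0.26 (2.05-fold, adjusted p = 0.000208). A second Krt13 probe was well above background in no channel and not tested, at levels of 6.07 and 6.09 in the mutant channel, against 6.41 and 6.63. Krt4, the type II partner of Krt13, was not well above background in any channel. Of the hair follicle sheath keratins, Krt75, of the companion layer, had 8.61 and 7.90 in the mutant channel, against 10.42 and 10.55 in the wild-type channel, and fell by 2.23 ± 0.60 (4.70-fold, adjusted p = 0.000159). Krt28, of the inner root sheath, lay near background at -0.085 and -0.12 and was not called (adjusted p = 0.129), though it was called lower when centred on either median or lowered by the spike-in mean.

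**Figure D2:**
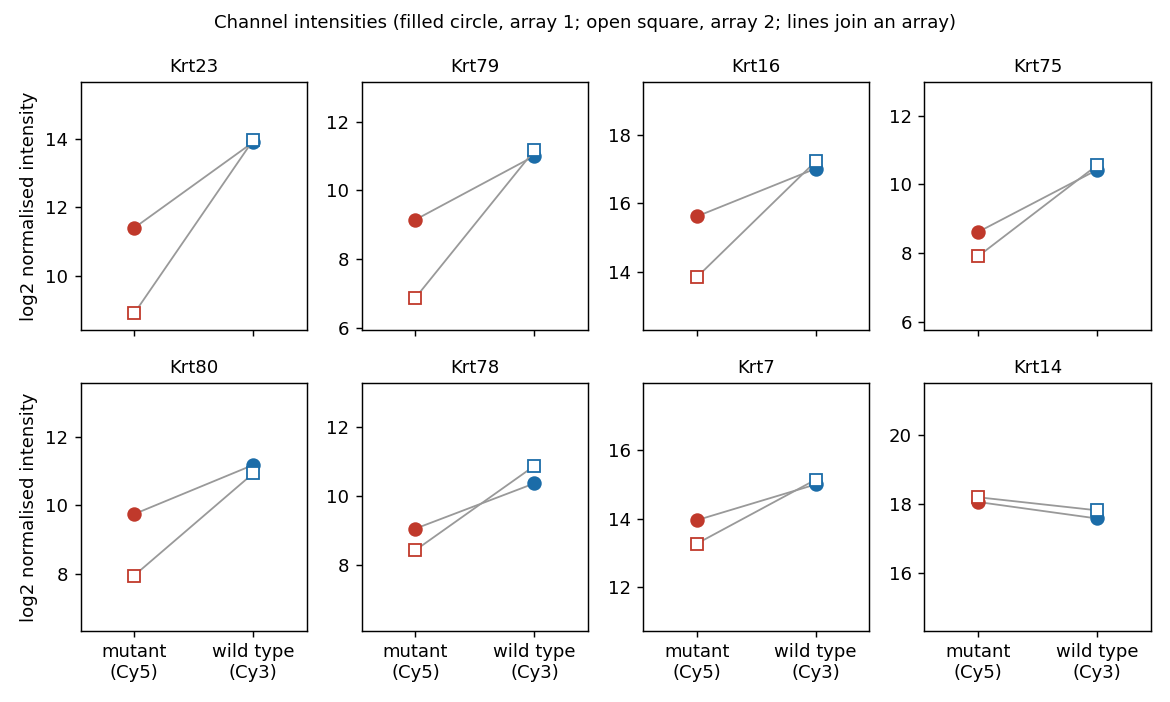
Log2 normalised intensity of the 7 keratins at least 2-fold lower on both arrays, and of Krt14, with the mutant channel left of the wild-type channel. Lines join the channels of an array, and each panel has its own axis of the same span. The wild-type points of the arrays lie close together, while the mutant points of Krt23, Krt79, Krt80 and Krt16 lie far apart.

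The arrays differed in how far the keratins fell, and for the 7 largest falls the difference lay mostly in the mutant channel. In 16 of the 17 keratins that fell the ratio was lower on array 2, where 63.6% of the 3888 genes that fell were lower on array 2. For the 7 keratins at least 2-fold lower on both arrays, the mutant level on array 2 minus that on array 1 had a median of -1.77, from -2.49 for Krt23 to -0.63 for Krt78. The same difference in the wild-type channel had a median of 0.14, from -0.25 to 0.51. Over all 441 genes at least 2-fold lower on both arrays, the medians were -0.32 in the mutant channel and 0.04 in the wild-type channel. Krt6a, Krt6b and Krt13 went otherwise, with array 2 above array 1 by 0.70, 0.59 and 0.51 in the wild-type channel and by 0.086, 0.083 and 0.14 in the mutant channel. Both arrays came from 1 slide and 1 scan, per the file headers. On array 2 alone 11 keratins were at least 2-fold lower, and on array 1 alone 7, but the share of all genes on each array alone was not counted.

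**Figure D3:**
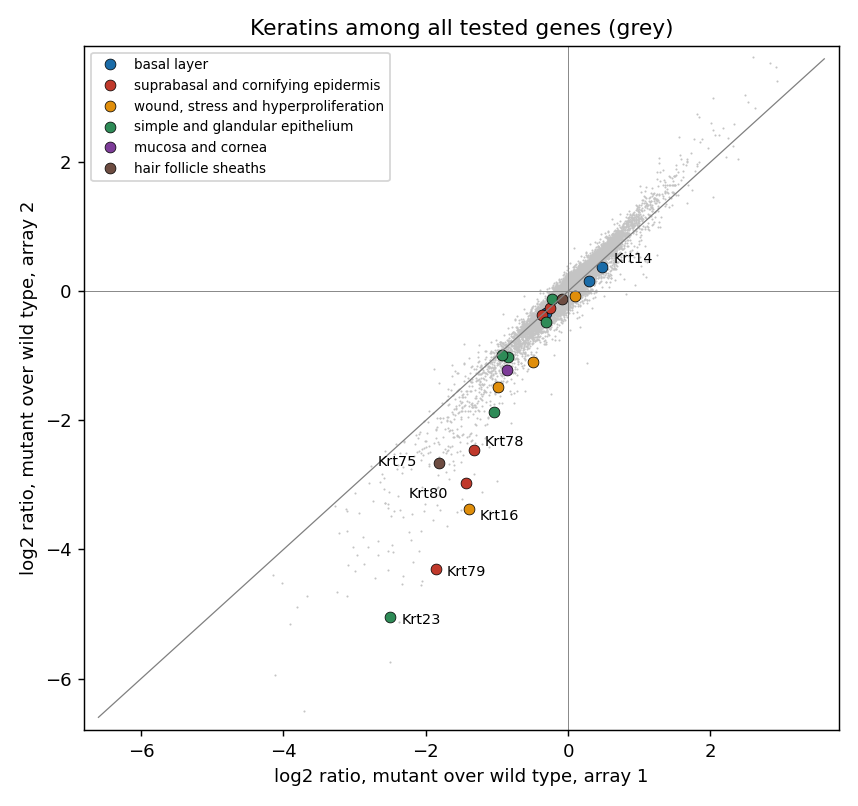
Log2 ratio of mutant over wild type on array 1 (x axis) and array 2 (y axis) for all 13758 tested genes in grey and the 21 keratins in colour. The diagonal marks equal ratios. Krt23, Krt79 and Krt16 lie well below the diagonal, at -5.05, -4.30 and -3.38 on array 2.

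Keratins that pair in filaments did not all move by the same amount. Krt14 minus Krt5 was 0.18 on array 1 and 0.22 on array 2, and Krt10 minus Krt1 was 0.11 and 0.12, where the signal of Krt1 is only a bound in the mutant channel. On array 1 the mutant spots of Krt14 and Krt17 were saturated, so their differences there are lower bounds. Krt16 minus Krt6a was -0.91 and -2.28, and Krt18 minus Krt8 was -0.62 and -0.89. Krt17 minus Krt6b was 1.09 and 1.42. These differences of log2 ratios are descriptive. By type, the 11 tested type I genes had a median of -0.39 (8 fell and 1 rose) and the 10 tested type II genes a median of -1.35 (9 fell and 1 rose).

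Along the chromosomes, genes that rose stood beside genes that fell. On chromosome 11, Krt14 (0.43) is followed by Krt16 (-2.39) and Krt17 (0.018), and Krt20 (-0.39) by Krt23 (-3.77). On chromosome 15, Krt75 (-2.23), Krt6b (-1.24), Krt6a (-0.79) and Krt5 (0.23) follow each other in this order. At the end of that row stand Krt79 (-3.08), Krt78 (-1.89), Krt8 (-0.18) and Krt18 (-0.93). Krt90, which the arrays list under a clone name and the rule therefore leaves out, lies beside Krt75. It fell by 0.59 (adjusted p = 0.000683, limma), but its mutant channel was not well above background on array 2.

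**Figure D4:**
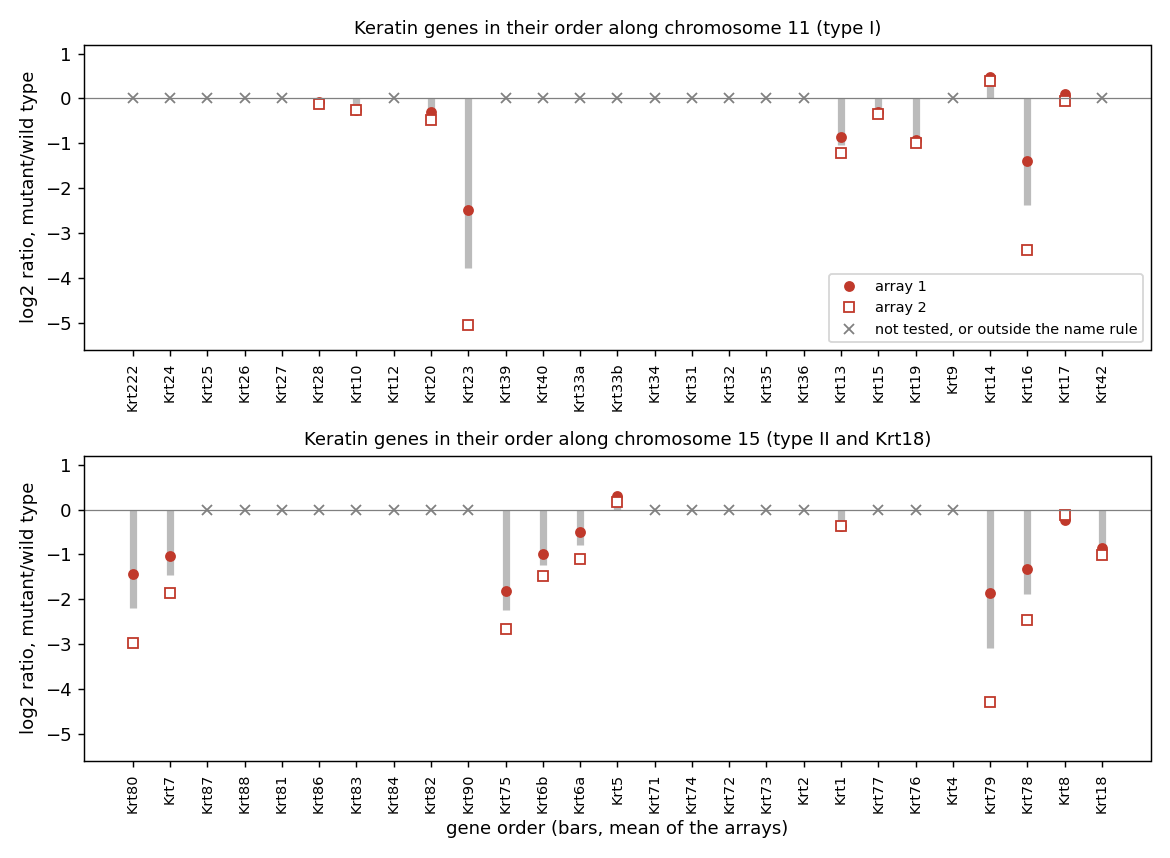
Log2 ratio of mutant over wild type for keratin genes in their order along chromosomes 11 and 15 (equal steps, not to distance). Bars are means, circles array 1 and squares array 2; crosses mark genes not tested or outside the name rule. After loess Krt14 stands above 0 beside Krt16 below it, and Krt5 beside Krt6a. Lowered by the spike-in mean, all 21 lie below 0, in a setting where 21210 of all 23540 probes tested were called lower.

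RefSeq promoter windows of GRCm38.p6 that begin at the start of the gene were used for 10 of the 21 tested genes, and Krt16, Krt78 and Krt80 are not among them. Of these 10, the 4 with the largest falls and Krt5 of the basal pair are shown, to set their letters beside the ratios. Each line gives the 250 bases before the start, 5′ to 3′ on the strand of the gene. Capitals mark matches on either strand to the TATA box (TATAAA), to its variant (ATAAAA), to the AP-1 site (TGANTCA), to the GC box (GGGCGG), the NF-κB consensus and the consensus of a p53 family half-site.
Krt23 (chr11:99493121-99493370, minus strand): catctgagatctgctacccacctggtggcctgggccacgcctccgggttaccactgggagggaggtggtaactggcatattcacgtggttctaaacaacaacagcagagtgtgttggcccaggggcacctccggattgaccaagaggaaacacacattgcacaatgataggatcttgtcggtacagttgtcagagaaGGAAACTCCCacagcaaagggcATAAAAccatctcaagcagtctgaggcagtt
Krt79 (chr15:101940325-101940574, minus strand): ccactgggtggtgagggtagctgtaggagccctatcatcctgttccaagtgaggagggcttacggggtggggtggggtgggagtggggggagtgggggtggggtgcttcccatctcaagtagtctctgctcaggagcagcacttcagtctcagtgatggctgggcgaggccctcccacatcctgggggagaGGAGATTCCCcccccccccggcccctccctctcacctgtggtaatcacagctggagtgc
Krt75 (chr15:101573905-101574154, minus strand): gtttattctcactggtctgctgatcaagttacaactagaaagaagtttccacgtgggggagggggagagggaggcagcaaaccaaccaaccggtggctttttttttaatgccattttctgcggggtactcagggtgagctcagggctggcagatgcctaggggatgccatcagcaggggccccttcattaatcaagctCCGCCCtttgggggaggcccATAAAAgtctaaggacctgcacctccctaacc
Krt7 (chr15:101412153-101412402, plus strand): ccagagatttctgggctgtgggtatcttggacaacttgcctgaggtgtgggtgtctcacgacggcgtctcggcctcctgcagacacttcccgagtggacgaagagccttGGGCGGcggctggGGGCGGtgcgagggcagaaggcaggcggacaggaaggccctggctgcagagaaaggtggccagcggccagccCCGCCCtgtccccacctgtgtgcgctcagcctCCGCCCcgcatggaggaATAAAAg
Krt5 (chr15:101712906-101713155, minus strand): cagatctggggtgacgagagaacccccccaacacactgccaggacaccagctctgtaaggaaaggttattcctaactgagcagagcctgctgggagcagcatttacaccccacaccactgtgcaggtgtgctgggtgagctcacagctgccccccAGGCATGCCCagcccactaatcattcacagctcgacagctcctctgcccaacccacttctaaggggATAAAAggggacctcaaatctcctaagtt

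The capitals in Krt23, at a mean log2 ratio of -3.77, are 1 NF-κB consensus and 1 ATAAAA, and those in Krt79 (-3.08) are 1 NF-κB consensus. Krt75 (-2.23) held 1 GC box and 1 ATAAAA, and Krt7 (-1.45) 4 GC boxes and 1 ATAAAA. Krt5 (0.23) held 1 p53 family half-site, the kind of site that the basal factor p63 binds, and 1 ATAAAA. The ATAAAA, chosen as a motif after these sequences were seen, began 29 bases before the start in Krt5, 31 in Krt23 and 32 in Krt75, but 7 in Krt7. It can overlap TATAAA, and AP-1 matched none of the 5 sequences.

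Over the 10 keratin windows the NF-κB consensus matched 3 (Krt18, Krt23 and Krt79), against 7.25% of all 32851 promoter windows of the same length. TATAAA matched 2 of 10, against 12.4%. ATAAAA matched 7 of 10, against 17%, but it was chosen after the sequences above were seen, so that difference tests nothing. The GC box matched 2 of 10, against 32.7%, AP-1 1 of 10, against 6.75%, and the p53 family half-site 1 of 10, against 7.13%. A match says only that these letters are present, not that a factor binds there.

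Genes whose products anchor, bundle or accompany keratin filaments moved in both directions, at a median of -0.41 against 0.021 over all genes. Of 20 such genes 18 were tested. Of these 11 fell, against 28.3% of all genes, and 5 rose, against 33%. At least 2-fold lower on both arrays were 5, against 3.21%. With each array centred on the median of all gene spots, 10 were higher and 6 lower. In that setting 16403 of all 23540 probes tested were higher and 1593 lower. With the spike-in mean taken off, 0 partners were higher and 14 lower, where 462 of all probes tested were higher and 21210 lower. The largest falls were those of Krtdap, a secreted protein of suprabasal cells (-2.45 ± 0.85), Flg, whose product filaggrin bundles keratin (-2.14 ± 0.77), and the cornified envelope plakins Evpl (-1.93 ± 0.46) and Ppl (-1.68 ± 0.56). The largest rises, none of them called with the spike-in mean taken off, were those of Dst, which holds keratin filaments at hemidesmosomes (0.96 ± 0.34), Vim, the filament protein of mesenchymal cells (0.73 ± 0.10), Tchp, a keratin-binding protein (0.69 ± 0.21), and Plec, also of hemidesmosomes (0.59 ± 0.070). For these 8 genes the adjusted p lay between 0.000117 and 0.000593 (limma).

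Markers of other cells moved in both directions, and their part in the keratin results was not tested. In bulk RNA fewer cells of a type and less RNA per cell cannot be told apart. By the same test 28.3% of all genes fell and 33% rose. Of the 9 keratinocyte markers 6 rose and 3 fell, Cdh1 (-0.60), Dsp (-0.91) and Perp (-0.63). Of 7 Merkel cell markers 5 were tested and all 5 fell, Krt20 among them. Their summed normalised intensity was 1612 and 1328 in the mutant channel, against 2023 and 1780 in the wild-type channel. Most of that sum is Krt20, and without it the other 4 summed to 454 and 417 in the mutant channel, against 591 and 517 in the wild-type channel. Those 4 lay near background, at log2 levels from 6.53 to 7.55. Piezo2 in the mutant channel and Isl1 in the wild-type channel were well above background on only 1 array. Atoh1 and Syp were not well above background in any channel. Of 8 hair follicle markers 5 were tested, 2 rose and 2 fell, with sums of 8155 and 10612 in the mutant channel, against 16587 and 21237 in the wild-type channel. Most of that sum is Sox9, and without it the sums were 2498 and 3519 in the mutant channel, against 2947 and 4081 in the wild-type channel. The median log2 ratio of the 5 was -0.13, and Shh and Hoxc13 were not well above background. Of the fibroblast markers 7 of 9 rose and 1 fell, with sums of 293830 and 287004 in the mutant channel, against 149024 and 119060 in the wild-type channel. The 8 melanocyte markers all fell, with sums of 20529 and 18217 in the mutant channel, against 48807 and 50065 in the wild-type channel. Of 6 macrophage and Langerhans cell markers 4 were tested and 3 fell, with sums of 2861 and 2617 in the mutant channel, against 4082 and 3885 in the wild-type channel. Of 4 endothelial markers 1 was tested, and it rose. Of the sebaceous and sweat gland markers 1 of 4 was tested, and it was not called.

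**Figure D5:**
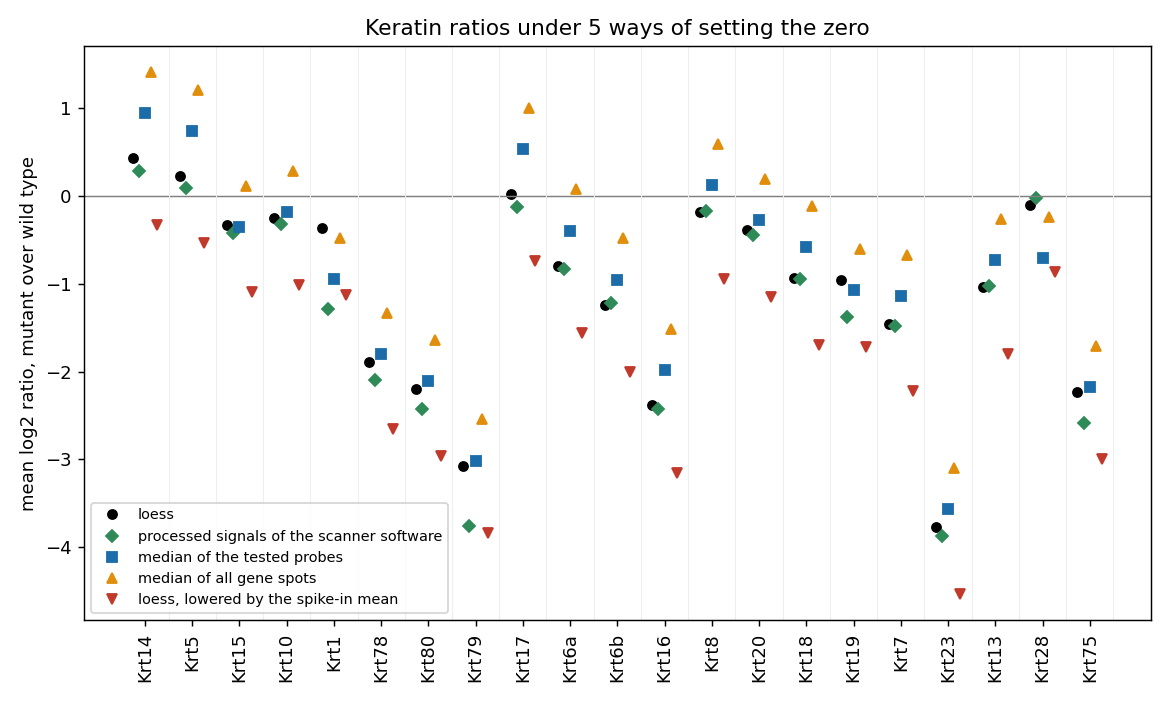
Mean log2 ratio of mutant over wild type of the 21 keratin genes under 5 ways of setting the zero of the scale. Krt14, Krt5, Krt17, Krt6a, Krt8, Krt10, Krt15 and Krt20 change side of 0 between settings. Krt23, Krt79, Krt75, Krt80 and Krt16 stay below -1.5 in each.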

How the data were processed

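Per the file headers, the authors' scanner files come from Agilent Feature Extraction 9.1.3.1. Their deposited intensity columns hold each spot's mean brightness and local background, uncorrected, and the processed intensity, which the software had background subtracted, detrended and dye normalised. The deposited log10 ratio is processed Cy5 over Cy3. The deposited values of the series matched it to within 0.005, with a median of 0 on both arrays.

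In R 4.3.3 with limma 3.58.1, background was corrected by normexp (offset 50) and log2 ratios were normalised by loess, with control spots at weight 0 and then removed. Spots marked as outliers (51 on array 1, 18 on array 2) were dropped, and repeated spots averaged. The 23540 probes that passed the background flags given above were fitted with lmFit and eBayes (1 residual and 5.14 prior degrees of freedom). Tests were two-sided against 0, and Benjamini-Hochberg adjustment ran over all of these probes, with a threshold of 0.05. The fit was tested on simulated data. Channel levels were scaled between arrays by Aquantile. Where no mutant spot was well above background, the wild-type mean was set against each array's larger value of that spot and of the dimmest detected probe. Such bounds are open to dye bias.

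Names came from RefSeq (GRCm38.p6): of the 49 keratin probes, 37 through an accession and 11 through a symbol or synonym. The probe with the highest mean log2 intensity stood for its gene. Every tested keratin is named, and of the filament partners up to 4 called in each direction with the largest change. The members and lists were chosen with earlier results of these data known. Alternatives were other backgrounds, centrings, filters, probe rules and each array alone.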

Additional observations from a re-analysis of the deposited data

How the results depend on the processing

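Krt1, Krt6b, Krt7, Krt13, Krt16, Krt19, Krt23, Krt75, Krt78, Krt79 and Krt80 fell under each tested alternative that kept them (Krt1 was dropped where both channels had to be above background). The smaller changes depend on the zero of the scale. Centred on the median of all gene spots, 5 keratins were higher (6 probes) and 12 lower (13 probes). At least 2-fold on both arrays, 2 were higher and 3 lower, without a count over all genes. Of the filament partners 10 were higher and 6 lower. Among all 23540 probes tested, 16403 were higher and 1593 lower there. Krt6a (0.076), Krt8 (0.59), Krt10 (0.29), Krt15 (0.12) and Krt20 (0.20) turned positive there, and Krt18 (-0.11) lost its call. Lowered by the spike-in mean, 0 keratins, keratin probes and partners were higher and 13 keratins were at least 2-fold lower. Krt5 then lay at -0.53, Krt14 at -0.33 and Krt17 at -0.75. Among all probes tested, 462 were higher and 21210 lower with that mean taken off. In the processed signals 1 keratin (1 probe) was higher, Krt14. Centring on the median of the tested probes, added after seeing the data as were the marker sums without their brightest gene, put Krt8 at 0.12. Krt17 (0.53) and Krt28 (-0.71) were then called and Krt10 (-0.18) was not. With 1 array left out there is no test, and the count of keratins at least 2-fold lower ranged from 7 to 11, without a count over all genes. No paired analysis was possible because each array's ratio already pairs its channels and the arrays form 1 group. The cause of these changes was not tested. Near background, as for Krt1 and Krt28, the signal limits what could be measured.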
